A study of Mus musculus with 24 samples.

Results

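Ribosome-bound RNA was compared between hypoxic macrophages of 3 mice labelled as HuR knockouts and 3 control mice. HuR is the RNA-binding protein encoded by Elavl1. The 6 libraries compared were part of 24 in the series, and every gene that reached 1 TPM in at least 3 of the 6 was described, which left 10943 of 52636 genes. The KO group (animals KO-176, KO-281, KO-301) had the genotype Csf1r-iCre.HuRfl/fl, with both copies of Elavl1 floxed. The HET group (animals HET-97, HET-102, HET-129) had the genotype Csf1r-iCre.HuR+/fl, so the controls carried the same Cre and 1 floxed copy. In both groups the Cre was driven by the Csf1r promoter, which is active in macrophages and other myeloid cells, and the cells expressed EGFP-L10a, a ribosomal protein with a fluorescent tag. Marrow was taken at 8 to 12 weeks of age, macrophages were grown for 6 days with L-cell medium, and plates were held for 18 h at 1% oxygen. Lysates were split for total RNA and for translating ribosome affinity purification (TRAP), which pulls down tagged ribosomes with the RNA bound to them, and poly(A) libraries were made from both. Each mouse also gave a TRAP library at 20% oxygen and total RNA libraries at both oxygen levels, and these are used below for the differences between oxygen levels and between fractions, and for values set beside hypoxic TRAP RNA.

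HuR is an ELAV-family protein that binds AU-rich and U-rich stretches, mostly in 3' untranslated regions (UTRs), and is known to affect the stability and translation of its targets. Tristetraprolin (Zfp36) and its relatives bind similar AU-rich elements and recruit the deadenylation machinery, so that many cytokine and immediate early messengers are bound by proteins with opposite effects. In macrophages, hypoxia stabilises hypoxia-inducible factors (HIF), which induce glycolytic enzymes, Vegfa and Arg1. TRAP reports how much RNA sits on tagged ribosomes and not how fast it is translated.

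AU-rich sites in the 3' UTRs of 8 genes described below are printed here because they are the kind of element that HuR and Zfp36 bind. Each is a 30-base window of a GENCODE M21 transcript on GRCm38, read 5' to 3' along the messenger. The capitals mark the first TTATTTATT of the 3' UTR, the nonamer of AU-rich elements written with T for U. Further matches in the windows of Elavl1, Tnf and Txnrd1 were left in lower case.
Elavl1 (chr8:4285787-4285816, minus strand): gtcatgaaaaTTATTTATTtatttatttat
Tnf (chr17:35199688-35199717, minus strand): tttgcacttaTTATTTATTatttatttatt
Zfp36 (chr7:28376950-28376979, minus strand): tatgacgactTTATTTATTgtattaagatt
Fos (chr12:85477103-85477132, plus strand): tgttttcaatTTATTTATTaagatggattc
Thbs1 (chr2:118126155-118126184, plus strand): taaatacagaTTATTTATTaaccctgttct
Nfkbia (chr12:55489607-55489636, minus strand): ggaccacgttTTATTTATTgtgcttttgat
Txnrd1 (chr10:82897446-82897475, plus strand): ctgttcagttTTATTTATTtattttttaag
Commd7 (chr2:153617401-153617430, minus strand): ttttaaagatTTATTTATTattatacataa
Tnf and Elavl1 held clusters, with 5 and 8 overlapping TTATTTATT matches in their 3' UTRs, Txnrd1 held 2, and the other 5 genes held 1 each. Among 9788 tested genes with an annotated 3' UTR, 760 (7.77%) held at least 1 match on the sense strand. A match is a run of letters and was not measured as a binding site.

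Labelled cell type and libraries were checked first. All 14 macrophage markers were present in every library, from 8.49 TPM for Mertk in KO-176 to 17390 TPM for Lyz2 in HET-129. Their summed level was 26040 to 31960 TPM in KO libraries and 33740 to 42010 TPM in HET libraries. Lyz2 alone had 8240 to 12030 TPM in KO and 16050 to 17390 TPM in HET libraries. It was the only 1 of the 14 (7.14%) to be lower without overlap, against 7.4% of all genes. All 7 markers of T and NK cells, all 6 erythroid markers and all 5 mast cell markers were listed at 0 in the 6 libraries. The 10 neutrophil markers summed to 7.32 to 92.2 TPM in KO libraries and 12.2 to 36.3 TPM in HET libraries, with Ly6g, Elane, Retnlg and Cxcr2 at 0, and the highest sum was in KO-301. Stromal markers summed to at most 3.29 TPM and endothelial markers to at most 5.45 TPM, both in KO-301. B cell markers summed to at most 10.18 TPM in HET-129, all from Cd79b, and dendritic cell markers to at most 9.62 TPM in HET-97, mostly from Itgax. Megakaryocyte markers summed to 1514 to 3467 TPM in KO and 2076 to 3448 TPM in HET libraries, nearly all from Pf4 (1503 to 3439 TPM over the 6 libraries). Libraries KO-301 and HET-129 stood apart from the other 4 on the first principal component, which held 48.3% of the variance, and KO-281 stood apart on the second with 20.4%. In KO-301 and HET-129 the share of TPM in cytosolic ribosomal protein genes was 15.01% and 19.5%, against 24.7 to 29.4% in the others. In KO-281 a single transcript known as Gm42418 took 6.82% of all TPM, whereas the highest gene of each other library took 2.77 to 3.86%. Y-linked Eif2s3y was listed at 0 in KO-281 and HET-102, so each genotype held mice of both sexes.

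Elavl1 was not lower in every library with the KO label. It lies on the minus strand of chromosome 8, from 4285382 to 4325413, and had 1.75, 23.5 and 12.2 TPM in KO-176, KO-281 and KO-301, against 17.2, 16.3 and 10.5 TPM in HET-97, HET-102 and HET-129. KO-176 alone lay below the control range and KO-281 lay above it. The log2 difference, KO minus HET on the mean log2(TPM + 1) scale used throughout, was -0.68 ± 0.75 (SE, n = 3 each), with a limma adjusted p of 0.977 and an exact two-sided permutation p of 0.8, where 0.1 is the smallest that 3 against 3 allows. Without KO-176 the difference was 0.23, above 0. In total RNA of the same hypoxic lysates Elavl1 had 29.4, 34.9 and 26.1 TPM in KO mice, against 21.2, 59.8 and 24.9 TPM in HET mice, and KO-176 was not low there. A floxed exon that is cut out leaves a shorter transcript that still gives reads, so gene-level TPM cannot show an exon deletion. Genotypes are therefore given as labelled, and each direction below rests on the labels.

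No gene passed the test across the transcriptome. With limma on the 6 libraries, 0 of 10943 genes (0.0%) reached an adjusted p under 0.05, and 486 genes (4.44%) had an unadjusted p under 0.05, 131 of them (1.2%) higher in KO and 355 (3.24%) lower. All KO libraries lay above all HET libraries in 321 genes (2.93%) and below them in 810 genes (7.4%). The mean difference was above 0 in 4178 genes (38.2%), and the median over all genes was -0.10. That tilt depended on scaling: after quantile normalisation the median was 0.00, with 565 genes above and 569 below without overlap, and after scaling on nuclear coding genes with ribosomal proteins left out the median was -0.04, with 418 above and 481 below. Genes are accordingly read against the median of -0.10, and the text gives values for genes that stood out by size without saying that they changed.

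**Figure D1:**
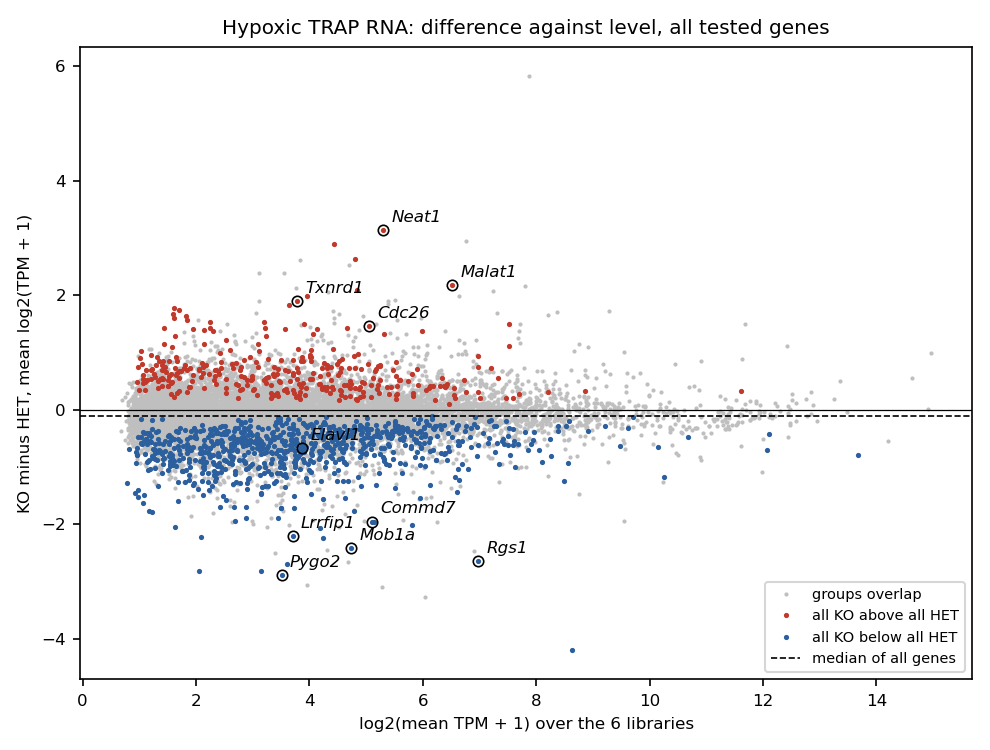
Difference between KO and HET (vertical, mean log2(TPM + 1)) against mean level (horizontal, log2 of mean TPM + 1) for the 10943 genes tested in hypoxic TRAP RNA. Red points are the 321 genes with all KO libraries above all HET libraries, blue points the 810 with all KO below, and the dashed line is the median of all genes at -0.10.

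AU-rich elements did not separate the genes. The 6976 genes with no TATTTAT match in the 3' UTR had a median log2 difference of -0.11, the 1862 with 1 match had -0.10 and the 950 with 2 or more had -0.13. All KO libraries lay below all HET libraries in 7.26% of the genes with 2 or more matches, against 8.01% of those with none, and above them in 2.42% against 2.68%. For the longer TTATTTATT, which contains TATTTAT, the 760 genes with a match had a median of -0.10 and the 9028 without had -0.11. The median of genes with 2 or more TATTTAT matches minus that of genes with none was -0.02, against a spread of 0.11 (SD) between libraries of the same genotype. Genes with 2 or more matches had longer 3' UTRs, with a median of 2746 bases against 830.5 bases for genes with none. Within the genes of longest UTRs, the median difference was -0.13 for 703 genes with 2 or more matches and -0.11 for 1614 genes with none. These groups are descriptions with no test.

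**Figure D2:**
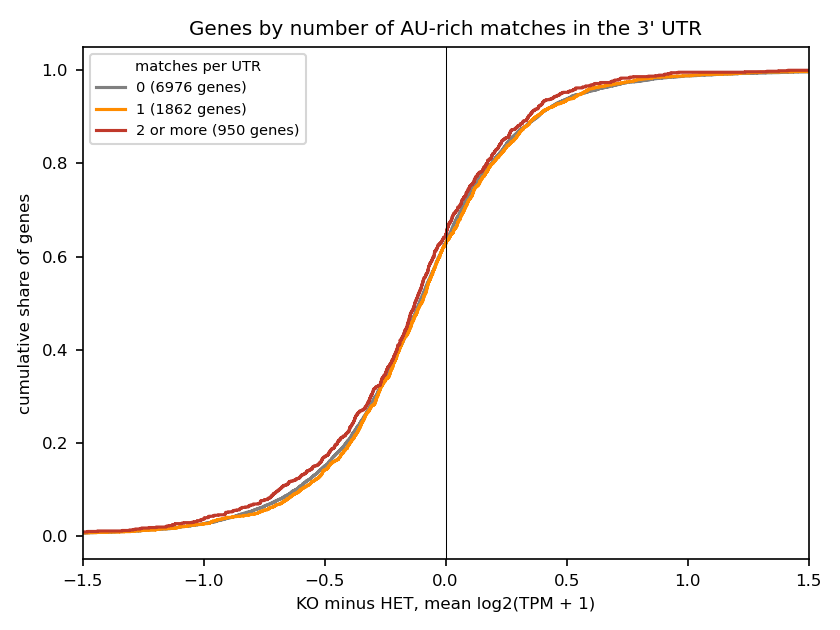
Cumulative share of genes (vertical) by KO minus HET difference in hypoxic TRAP RNA (horizontal, mean log2(TPM + 1)), for genes with 0, 1 and 2 or more TATTTAT matches in the longest annotated 3' UTR. The 3 curves lie nearly on top of each other, with medians of -0.11, -0.10 and -0.13.

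Nuclear long noncoding RNAs were among the genes that stood highest in KO relative to HET. Neat1 (chromosome 19, 5824708 to 5845478, minus strand), the scaffold RNA of paraspeckles, had 96.1, 61.7 and 37.4 TPM in KO libraries, against 31.3, 1.66 and 3.03 TPM in HET libraries, each in the order of animals given above. Every KO value exceeded every HET value, though HET-97 lay close to KO-301. Its difference was 3.13 ± 0.90 (adjusted p 0.977 in limma), against 1.37 in normoxic TRAP RNA and 1.63 in hypoxic total RNA, where KO also lay above HET without overlap. Malat1, an abundant nuclear speckle RNA, had 104.7, 115.2 and 206.2 TPM in KO and 33.8, 9.60 and 73.9 TPM in HET libraries, with a difference of 2.18 ± 0.68 (limma adjusted p 0.977). In hypoxic total RNA the groups overlapped, with a difference of 0.25, and the difference between fractions was 1.92 ± 1.16 (limma adjusted p 0.9999). Scarna17, a Cajal body RNA that guides modification of spliceosomal RNAs, had 5.63, 129.1 and 16.4 TPM in KO and 2.74, 5.50 and 1.59 TPM in HET libraries, so that KO-281 was far above the rest and KO-176 was level with HET-102. Of 7 tested RNA quality and nuclear RNA markers, 3 stood higher without overlap (42.9% of the list, against 2.93% of all genes), Rmrp, Neat1 and Malat1, and Gas5 did not separate (430, 442.8 and 272.2 TPM in KO, 454.8, 473.5 and 328.1 TPM in HET). Long intergenic noncoding RNAs in all took 2.99, 7.14 and 3.78% of TPM in KO and 1.98, 3.26 and 1.69% in HET libraries. For scale, the single transcript Gm42418 took 2.77% of TPM in KO-176 and 6.82% in KO-281. These shares therefore do not show a rise of the class as a whole, and their part in the differences above was not tested. Mir142hg (12.3, 15.6 and 9.94 TPM in KO, 2.86, 3.36 and 5.02 TPM in HET) is the host transcript of a microRNA of blood cells, and its difference was 1.53 ± 0.31 (limma adjusted p 0.848). In total RNA of the same lysates Mir142hg had 31.7, 33.4 and 55.6 TPM in KO and 37.6, 41.8 and 70.7 TPM in HET libraries, where the groups overlapped.

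The protein-coding genes named for a higher level by size were Prpf38b, Srek1, Cdc26, Anapc4, Med12, Txnrd1, Igtp and Tmem39a. Prpf38b, a spliceosomal protein, had 66.7, 114.6 and 90.4 TPM in KO and 23.04, 38.6 and 42.7 TPM in HET libraries (difference 1.37 ± 0.31). Srek1, a regulator of splice site choice, had 19.2, 26.3 and 26.3 TPM in KO and 4.24, 13.1 and 9.78 TPM in HET libraries (1.41 ± 0.40). In both genes the lowest KO library was well above the highest HET library. Cdc26 and Anapc4, subunits of the ubiquitin ligase that drives exit from mitosis, are given side by side: Cdc26 had 48.2, 57.4 and 37.3 TPM in KO against 11.3, 18.6 and 21.3 TPM in HET libraries, and Anapc4 had 46.3, 40.3 and 22.5 TPM against 11.3, 15.6 and 10.4 TPM. Their differences were 1.45 ± 0.30 and 1.44 ± 0.33 in hypoxic TRAP RNA, but -0.82 and -0.05 in normoxic TRAP RNA. Cdc26 overlaps Slc31a1 on the other strand, which had 35.6 to 42.0 TPM in KO and 22.1 to 36.8 TPM in HET libraries, and the strand setting of the counting is not stated. Med12, of the Mediator kinase module, had 19.7, 27.7 and 16.1 TPM in KO and 9.14, 4.24 and 7.54 TPM in HET libraries (1.49 ± 0.35), while its total RNA differed by 0.20 with overlap. None of these genes passed, with limma adjusted p of 0.848 for Cdc26 and 0.977 for the others.

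Txnrd1, cytosolic thioredoxin reductase and a target of the oxidative stress factor NRF2, stood higher on ribosomes of KO mice while its total RNA overlapped. It had 17.5, 34.2 and 11.5 TPM in KO and 5.56, 5.42 and 2.79 TPM in HET libraries, with no overlap and a difference of 1.89 ± 0.44 (limma adjusted p 0.977). In hypoxic total RNA it had 46.3, 69.5 and 27.8 TPM in KO and 49.8, 61.4 and 34.0 TPM in HET libraries. The gene carries 2 of the TTATTTATT matches printed above. Igtp, an interferon-induced GTPase of 10.4, 22.7 and 110.7 TPM in KO and 8.78, 10.1 and 2.58 TPM in HET libraries (2.09 ± 0.85), rested on KO-301, since KO-176 lay just above HET-102. Igtp overlaps Irgm2 on the same strand, whose levels were 7.19, 12.5 and 43.0 TPM in KO and 8.01, 5.23 and 0.02 TPM in HET libraries, so reads could have been split between them. Tmem39a, a membrane protein of the endoplasmic reticulum, had 10.9, 25.2 and 12.0 TPM in KO and 6.90, 8.69 and 1.80 TPM in HET libraries (1.42 ± 0.55, limma adjusted p 0.977), a narrow separation apart from KO-281.

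**Figure D3:**
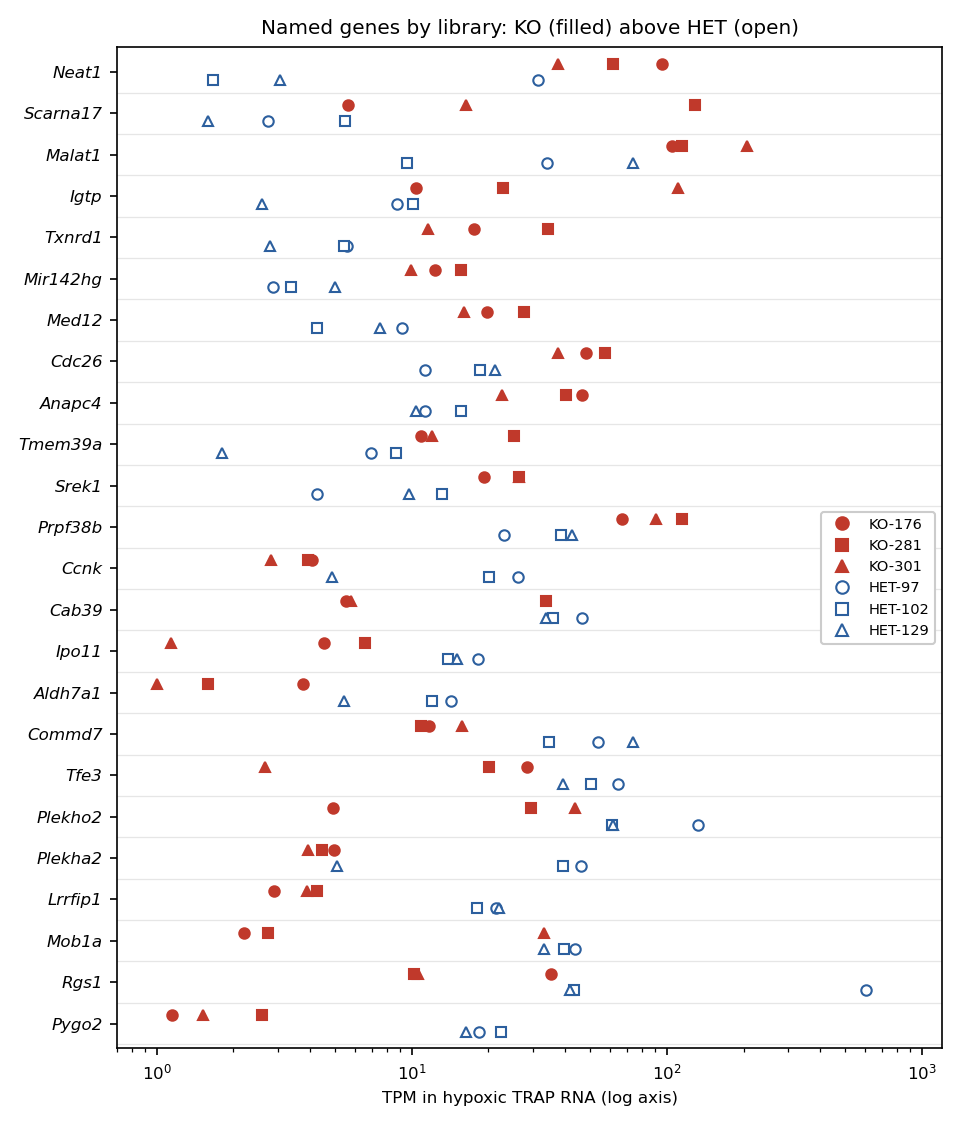
TPM of the 24 named genes in each hypoxic TRAP library (horizontal, log axis), KO filled and above, HET open and below, with 1 symbol per mouse. Pygo2 and Lrrfip1 have all KO libraries at 1.15 to 4.24 TPM and all HET libraries at 16.3 to 22.5 TPM, while Mob1a and Cab39 have 1 KO library at the control level.

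Pygo2 and Lrrfip1 had the smallest adjusted p of the 24 named genes. Pygo2 (ENSMUSG00000047824.13, chromosome 3, 89430214 to 89435128, plus strand), a PHD-finger cofactor of beta-catenin in Wnt signalling, had 1.15, 2.60 and 1.52 TPM in KO and 18.4, 22.5 and 16.3 TPM in HET libraries. Its difference was -2.89 ± 0.31, with an unadjusted p of 3.09e-05 and a limma adjusted p of 0.169. Lrrfip1 (chromosome 1, 90998737 to 91128944, plus strand), a nucleic acid-binding protein that interacts with Flightless, had 2.88, 4.24 and 3.90 TPM in KO and 21.4, 18.0 and 21.9 TPM in HET libraries, with a difference of -2.21 ± 0.26 and a limma adjusted p of 0.188. All 3 KO libraries were low and all 3 HET libraries high in both genes, and neither 3' UTR held a TATTTAT match. In hypoxic total RNA Pygo2 had 32.4, 24.6 and 21.7 TPM in KO and 27.9, 21.8 and 11.1 TPM in HET libraries, with overlap. Lrrfip1 had 39.0, 36.4 and 32.0 TPM in KO and 46.5, 41.6 and 50.0 TPM in HET libraries there, a smaller difference of -0.36 that did not overlap either. In normoxic TRAP RNA, Pygo2 was low in KO-176 (0.59 TPM) and at 27.4 and 15.7 TPM in the other KO mice, within or near the HET values of 17.0, 22.1 and 17.7 TPM. Lrrfip1 in normoxic TRAP RNA had 18.4, 11.6 and 4.12 TPM in KO and 17.8, 22.1 and 7.28 TPM in HET libraries, with overlap.

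Commd7 was low in every KO library as well. The gene encodes a COMM-domain protein known to bind NF-kB, and it had 11.7, 10.8 and 15.7 TPM in KO and 53.9, 34.7 and 73.7 TPM in HET libraries (-1.95 ± 0.32, limma adjusted p 0.684). Its hypoxic total RNA was 35.2, 12.7 and 13.7 TPM in KO and 31.0, 33.5 and 39.8 TPM in HET libraries, so that KO-281 and KO-301 were low in both fractions and KO-176 on ribosomes alone. Ipo11, a nuclear import receptor, had 4.53, 6.59 and 1.14 TPM in KO and 18.2, 13.9 and 15.01 TPM in HET libraries (-1.89 ± 0.48). Aldh7a1, a mitochondrial aldehyde dehydrogenase of lysine breakdown, had 3.76, 1.60 and 1.00 TPM in KO and 14.3, 12.1 and 5.44 TPM in HET libraries (-1.90 ± 0.47). Both separated the genotypes on ribosomes, with limma adjusted p of 0.977. Aldh7a1 was also lower without overlap in hypoxic total RNA, at 16.5, 1.84 and 7.40 TPM in KO and 24.5, 17.8 and 18.6 TPM in HET libraries, and it overlaps Phax on the other strand, which had 33.7 to 43.5 TPM in KO and 32.3 to 48.5 TPM in HET libraries. Tfe3, a transcription factor of lysosomal genes, had 28.4, 20.1 and 2.67 TPM in KO and 64.1, 50.3 and 39.1 TPM in HET libraries (-1.96 ± 0.74), and was lower without overlap in normoxic TRAP RNA too, at 24.2, 30.8 and 38.5 TPM in KO and 54.7, 63.4 and 47.9 TPM in HET libraries. Its total RNA differed by -0.11.

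The remaining lower genes rested on few libraries. Mob1a, an activator of LATS kinases in the Hippo pathway, had 2.19 and 2.73 TPM in KO-176 and KO-281 but 33.1 TPM in KO-301, against 43.6, 39.5 and 33.1 TPM in HET libraries (-2.42 ± 0.85). KO-301 was thus level with HET-129, and leaving out KO-301 brought Mob1a past the threshold (-3.52, limma adjusted p 0.0336). Cab39, the scaffold that activates the kinase LKB1, had 5.52, 33.5 and 5.76 TPM in KO and 46.7, 35.7 and 33.6 TPM in HET libraries (-1.77 ± 0.63), with KO-281 at the lowest control. Plekha2, an adaptor that binds a phosphoinositide, had 4.95, 4.45 and 3.93 TPM in KO and 46.0, 39.2 and 5.11 TPM in HET libraries (-2.06 ± 0.75), with HET-129 at the KO level. Ccnk, the cyclin partner of CDK12, had 4.08, 3.91 and 2.80 TPM in KO and 26.2, 20.1 and 4.89 TPM in HET libraries (-1.72 ± 0.57), and HET-129 was again close to KO. Total RNA of Ccnk differed by 0.04, of Plekha2 by -0.08 and of Cab39 by -0.22. Plekho2, a protein with the same kind of lipid-binding domain as Plekha2, had 4.90, 29.3 and 43.5 TPM in KO and 132.4, 60.9 and 61.7 TPM in HET libraries (-2.01 ± 0.74). Rgs1, which switches off G protein signalling, had 35.3, 10.2 and 10.6 TPM in KO and 605.1, 43.2 and 41.9 TPM in HET libraries (-2.64 ± 1.05), where HET-97 set the size and KO-176 came close to the other controls. None of these 6 genes passed with all 6 libraries, at a limma adjusted p of 0.977.

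The 24 genes named for their size in hypoxic TRAP RNA were then read in the other libraries of the same mice. Of the 12 higher genes, 0 were higher without overlap in normoxic TRAP RNA and 1, Neat1, in hypoxic total RNA, where 1.73% and 2.29% of all tested genes were so. Of the 12 lower genes, 1 was lower without overlap in normoxic TRAP RNA and 3 in hypoxic total RNA, where 4.21% and 6.15% of all genes were. The median difference of the 12 higher genes was 0.23 in normoxic TRAP RNA and 0.28 in hypoxic total RNA, and that of the 12 lower genes was -0.80 and -0.29. These genes were picked for their hypoxic TRAP values, which are a description of them.

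**Figure D4:**
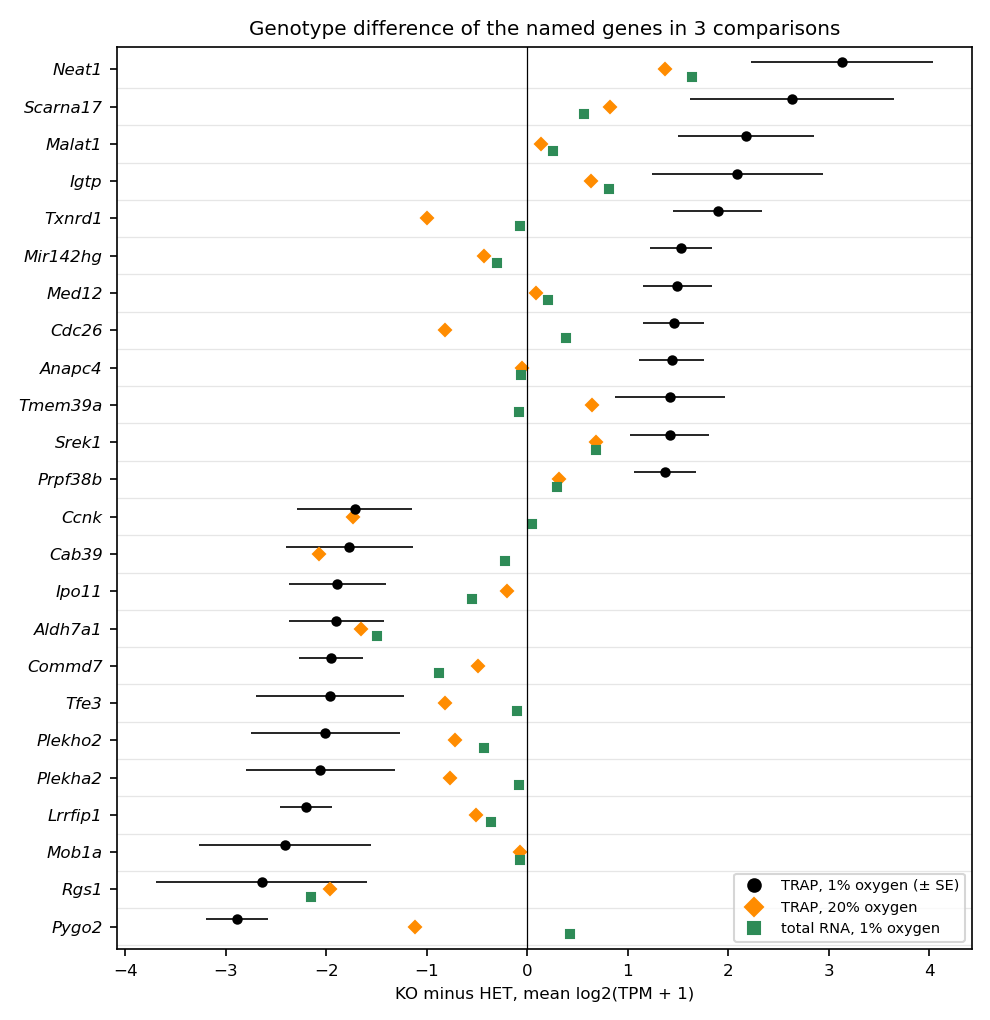
KO minus HET differences (horizontal, mean log2(TPM + 1)) of the 24 named genes in hypoxic TRAP RNA (circles with SE, n = 3 each), normoxic TRAP RNA (diamonds) and hypoxic total RNA (squares). The genes were chosen on the circles. For Pygo2 the 3 values are -2.89, -1.12 and 0.43.

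Whether the genotype difference on ribosomes depended on oxygen was tested as the difference between hypoxic and normoxic TRAP RNA. With limma over 12 TRAP libraries, 0 of 10943 genes (0.0%) passed, and 1.18% had an unadjusted p under 0.05, 68 genes (0.621%) higher and 61 (0.557%) lower, and the mean difference was above 0 in 47.9%. That fit did not pair the 2 oxygen levels of a mouse. With the mouse as a block in limma, 3.66% had an unadjusted p under 0.05. Per-mouse shifts from normoxia to hypoxia were all larger in KO than in HET mice for 533 genes (4.87%) and all smaller for 471 genes (4.3%). Larp4b, a La-related protein that binds AU-rich RNA and poly(A)-binding protein, had the largest named value at 3.93 ± 1.18 (limma adjusted p 0.9999). It had 22.2, 33.2 and 24.1 TPM in hypoxic KO libraries and 18.8, 19.3 and 4.54 TPM in hypoxic HET libraries, against 0.63, 0.56 and 18.5 TPM in normoxic KO and 25.4, 24.6 and 27.6 TPM in normoxic HET libraries. The value came from 2 normoxic KO libraries near 0. Nup62, a nuclear pore protein, was alike, with 0.76 and 0.79 TPM in normoxic KO-281 and KO-301 against 25.2 to 55.4 TPM in all hypoxic libraries (3.23 ± 1.16). It overlaps Atf5 on the other strand and Il4i1 on its own, so its reads are uncertain.

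Txnrd1 and Cdc26 were named again by their dependence on oxygen. Txnrd1 had 3.91, 40.4 and 1.27 TPM in normoxic KO and 38.3, 7.91 and 9.43 TPM in normoxic HET libraries, so the hypoxic separation was not present there (2.89 ± 1.30). Cdc26 had 12.9, 21.9 and 18.4 TPM in normoxic KO and 14.9, 54.6 and 37.5 TPM in normoxic HET libraries (2.28 ± 0.60), and its shift with hypoxia was upward in all 3 KO mice and downward in all 3 HET mice. In the other direction, Ugdh, the enzyme that makes UDP-glucuronate, had 13.9, 12.7 and 8.53 TPM in hypoxic KO and 39.6, 38.4 and 29.0 TPM in hypoxic HET libraries, but 12.8, 26.4 and 26.2 TPM in normoxic KO and 19.5, 13.2 and 5.50 TPM in normoxic HET libraries (-2.36 ± 0.59). Lrrc47 had 2.72, 3.00 and 5.57 TPM in hypoxic KO and 14.3, 11.6 and 9.92 TPM in hypoxic HET libraries, with normoxic values of 12.2, 16.1 and 15.8 TPM in KO and 13.7, 3.50 and 11.6 TPM in HET (-2.20 ± 0.60). In both genes the hypoxic groups did not overlap and the normoxic groups did. Lsm12, an RNA-binding protein of the Lsm family, and Tbk1, the kinase of interferon induction, had -2.51 ± 0.89 and -1.90 ± 0.80. Lsm12 was low in KO-301 in hypoxia (11.2 TPM) and in HET-97 and HET-129 in normoxia (12.0 and 4.60 TPM), and Tbk1 was low in KO-281 in hypoxia (5.59 TPM) and in HET-129 in normoxia (3.82 TPM). The adjusted p of all of them in limma was 0.9999, and fitting the mouse as a block also gave 0 calls.

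Whether the difference was particular to ribosome-bound RNA was tested against total RNA of the same hypoxic lysates. With limma over 12 hypoxic libraries, 0 of 10943 genes (0.0%) passed, 173 (1.58%) had an unadjusted p under 0.05, 81 of them (0.74%) higher and 92 (0.841%) lower, and the mean difference was above 0 in 48.6%. That fit did not pair the fractions of a mouse. With the mouse as a block in limma, 4.73% had an unadjusted p under 0.05 and 0 genes passed. The TRAP minus total value was higher in all KO than in all HET mice for 455 genes (4.16%) and lower for 658 genes (6.01%). Krcc1, Pygo2 and Lrrfip1 came closest, each with a limma adjusted p of 0.0781. For Pygo2 the difference of differences was -3.32 ± 0.47 and for Lrrfip1 -1.85 ± 0.26, both from low ribosome-bound levels in KO at total levels that differed by 0.43 and -0.36. Krcc1 had the opposite make-up: its TRAP values were 74.0, 120.7 and 100.4 TPM in KO and 87.0, 78.3 and 93.0 TPM in HET libraries, while its total RNA was 22.9, 18.7 and 17.3 TPM in KO and 87.5, 90.0 and 129.8 TPM in HET libraries (2.48 ± 0.31). With a pseudocount of 0.1 in place of 1, these 3 genes and an unnamed locus passed, Krcc1 at an adjusted p of 0.0410 and Pygo2 at 0.0493, and with quantile normalisation Krcc1 passed at 0.0445.

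Spr, which makes the cofactor tetrahydrobiopterin, resembled Krcc1 in that total RNA set the value. It had 26.7, 23.1 and 23.8 TPM on KO ribosomes and 26.5, 34.3 and 29.2 TPM on HET ribosomes, at total levels of 33.7, 28.9 and 22.98 TPM in KO and 6.71, 11.0 and 6.61 TPM in HET mice (-1.99 ± 0.32, limma adjusted p 0.145). Aptx, a DNA end-processing enzyme of strand-break repair, had 3.61, 2.51 and 8.91 TPM on KO ribosomes and 10.2, 5.18 and 24.6 TPM on HET ribosomes, with total levels of 14.1, 14.3 and 27.4 TPM in KO and 8.99, 4.82 and 10.7 TPM in HET mice (-2.24 ± 0.77). Casp2, an initiator caspase, stood 2.15 ± 0.77 the other way, with total levels of 3.74, 2.07 and 1.26 TPM in KO and 18.7, 6.27 and 7.48 TPM in HET mice. Txnrd1 and Mir142hg were named here with 1.96 ± 0.61 and 1.83 ± 0.44, from TRAP levels that did not overlap at total levels that did, and Lrrc47 with -2.38 ± 0.63. Limma adjusted p of these 5 genes were 0.9999.

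Proteins that bind AU-rich elements stood near the median of all genes as a group. Of 27 tested members of the ELAV family and related proteins, 10 had a mean above 0, and the median difference was -0.06, against -0.10 for all genes. Zfp36 itself, which recruits deadenylases to cytokine messengers, had 213.4, 235.4 and 126.7 TPM in KO and 347.1, 271.3 and 451.0 TPM in HET libraries (-0.91 ± 0.31, limma adjusted p 0.977). Zfp36l2, its relative, had 33.8, 32.2 and 17.3 TPM in KO and 64.8, 42.3 and 40.5 TPM in HET libraries (-0.83 ± 0.33). Caprin1, a stress granule protein, had 34.5, 36.5 and 13.9 TPM in KO and 54.7, 48.1 and 50.5 TPM in HET libraries (-0.94 ± 0.37). In all 3 genes every KO library lay below every HET library, and these were 3 of 27 members (11.1%) to do so, against 7.4% of all genes. The median of the list was 0.01 without HET-97.

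Of 46 tested messengers reported as HuR targets, 15 (32.6%) had a mean above 0, against 38.2% of all genes. Of them 0 lay higher and 2 (4.35%) lower without overlap, against 2.93% and 7.4% of all genes, and the median was -0.15, or 0.02 without KO-301. Fos, an immediate early gene with a labile AU-rich messenger, had 167.5, 318.4 and 98.5 TPM in KO and 393.1, 308.4 and 481.4 TPM in HET libraries (-1.15 ± 0.42). Thbs1, thrombospondin 1, had 23.3, 7.48 and 6.55 TPM in KO and 55.7, 27.8 and 17.9 TPM in HET libraries (-1.44 ± 0.57). Both overlapped by 1 library. On the other side, Nfkbia, the inhibitor of NF-kB, had 85.3, 686.3 and 192.4 TPM in KO and 60.1, 68.6 and 153.5 TPM in HET libraries (1.38 ± 0.74), and Mmp9, a secreted gelatinase, had 8.87, 26.8 and 42.5 TPM in KO and 5.61, 7.30 and 16.6 TPM in HET libraries (1.21 ± 0.61). Vegfa, the angiogenic ligand that HIF induces and HuR is reported to bind, had 25.7, 53.7 and 11.2 TPM in KO and 66.3, 32.3 and 35.7 TPM in HET libraries, with KO-281 above 2 of the controls (-0.73 ± 0.55). Each of these had a limma adjusted p of 0.977.

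Immediate early genes had the lowest median of the lists, -0.52, with 5 of 25 above 0 and 2 (8%) lower without overlap, against 7.4% of all genes. When each mouse was left out in turn the median stayed between -0.69 and -0.31, and without HET-129 and KO-301 together it was -0.17. Atf3, a stress-induced transcription factor, had 225.3, 141.3 and 172.6 TPM in KO and 317.7, 198.7 and 277.1 TPM in HET libraries (-0.55 ± 0.26, limma adjusted p 0.977), with KO-176 above HET-102. Median levels of the list by library, centred per gene, ran -0.16, 0.33 and -0.69 in KO-176, KO-281 and KO-301 and 0.04, -0.07 and 0.56 in HET-97, HET-102 and HET-129. The groups overlapped, with KO-281 above 2 controls.

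Inflammatory messengers stood on both sides. Of 13 tested cytokines, 4 had a mean above 0 and the median was -0.05, running from -0.43 without KO-301 to 0.20 without HET-129. Osm, oncostatin M, had 4.80, 20.0 and 9.25 TPM in KO and 18.6, 29.9 and 46.5 TPM in HET libraries (-1.51 ± 0.53), with KO-281 above HET-97. Tnf, whose AU-rich cluster is printed above, had 11.8, 63.9 and 27.2 TPM in KO and 12.7, 9.34 and 21.3 TPM in HET libraries (0.96 ± 0.59), high in KO-281 and KO-301 and at the control level in KO-176. Of 13 tested chemokines, 6 had a mean above 0, with a median of -0.21 that was 0.50 without HET-129 and 0.33 without KO-176. Cxcl10, the interferon-induced T-cell attractant, had 4.05, 17.3 and 51.6 TPM in KO and 0.87, 0.86 and 5.10 TPM in HET libraries (2.61 ± 0.88), where KO-176 lay below HET-129. Ccl3, a macrophage inflammatory chemokine, had 115.8, 70.8 and 109.9 TPM in KO and 161.0, 113.4 and 188.4 TPM in HET libraries (-0.64 ± 0.28), with KO-176 just above HET-102. Of 14 genes of NF-kB subunits and feedback inhibitors, 8 had a mean above 0 and 0 separated, and the median of 0.16 was -0.08 without KO-281. Bcl3 (22.3, 67.4 and 24.9 TPM in KO, 19.7, 13.0 and 23.7 TPM in HET) and Nfkbia led, both through KO-281. All of these had limma adjusted p of 0.977.

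Of 32 HIF-responsive genes other than glycolytic ones, 7 had a mean above 0, and the median was -0.38, between -0.51 without HET-102 and -0.16 without HET-97. Of these, 3 were lower without overlap (9.38% of the list, against 7.4% of all genes) and 0 higher. By library, centred per gene, the median of the list was 0.03, -0.07 and -0.44 in KO libraries and 0.41, -0.02 and 0.14 in HET libraries, so the groups overlapped. Hilpda, a HIF target that blocks lipid droplet breakdown, had 84.1, 53.9 and 67.6 TPM in KO and 138.8, 89.7 and 181.2 TPM in HET libraries (-0.95 ± 0.30, limma adjusted p 0.977), and differed by -0.98 in normoxic TRAP RNA and by -1.07 in hypoxic total RNA. Selenbp1 had 9.37, 6.43 and 9.64 TPM in KO and 14.3, 13.1 and 12.5 TPM in HET libraries, and Mxi1, an antagonist of MYC, had 16.0, 9.06 and 6.06 TPM in KO and 20.4, 15.9 and 15.8 TPM in HET libraries, where KO-176 was just above HET-102 and HET-129. Of 28 glycolysis genes, 9 (32.1%) had a mean above 0, against 38.2% of all genes, and 5 (17.9%) were lower without overlap, against 7.4%. Their median of -0.15 ran from -0.30 without HET-102 to -0.08 without KO-281. Pdk1, which restrains entry of pyruvate into mitochondria, had 19.8, 16.5 and 15.01 TPM in KO and 35.9, 24.9 and 27.7 TPM in HET libraries (-0.75 ± 0.24). Hk1, a hexokinase, had 8.00, 15.4 and 6.07 TPM in KO and 26.4, 18.3 and 17.8 TPM in HET libraries (-1.09 ± 0.37), and Pgam1 had 83.5, 50.2 and 62.1 TPM in KO and 135.4, 85.3 and 104.9 TPM in HET libraries (-0.73 ± 0.27). These 3 separated on hypoxic ribosomes, while in normoxic TRAP RNA they differed by -0.05, -0.09 and -0.25. The difference between oxygen levels itself had unadjusted p of 0.493, 0.130 and 0.427 in limma. Of 12 angiogenic ligands and receptors, 1 had a mean above 0 and 0 separated, with a median of -0.33 that ran from -0.61 without KO-176 to -0.07 without HET-97. Ang, a secreted ribonuclease, had 40.7, 21.6 and 31.6 TPM in KO and 35.6, 44.1 and 53.2 TPM in HET libraries (-0.52 ± 0.29), with KO-176 above HET-97.

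The integrated stress response is set off by eIF2 phosphorylation and acts through ATF4. Of 29 tested genes, 22 (75.9%) had a mean above 0, against 38.2% of all genes. Of them 2 (6.9%) were higher and 0 lower without overlap, against 2.93% and 7.4% of all genes, and the median was 0.38, between 0.13 without KO-281 and 0.66 without KO-176. Mars, methionyl-tRNA synthetase, had 22.7, 50.4 and 41.1 TPM in KO and 16.9, 19.9 and 17.1 TPM in HET libraries (0.97 ± 0.32, limma adjusted p 0.977), without overlap, while its total RNA differed by 0.08. Trib3, a pseudokinase induced by ATF4, had 12.0, 91.0 and 30.8 TPM in KO and 11.4, 15.6 and 9.36 TPM in HET libraries (1.39 ± 0.66), high in KO-281 and KO-301. Atf3, described above among immediate early genes, also belongs to this list and stood the other way (-0.55 ± 0.26). It was 1 of 7 members with a mean below 0. By library, centred per gene, the median of the list was -0.30, 0.63 and 0.11 in KO-176, KO-281 and KO-301 and -0.19, -0.15 and -0.14 in HET-97, HET-102 and HET-129, so KO-176 was the lowest of the 6. Genes of endoplasmic reticulum chaperones and the unfolded protein response had a median of -0.12, or 0.01 without KO-176, with 10 of 23 above 0. Syvn1, a ubiquitin ligase of protein quality control, had 18.0, 33.6 and 20.6 TPM in KO and 13.1, 14.5 and 13.4 TPM in HET libraries (0.72 ± 0.28), and Sdf2l1, a chaperone component, had 55.3, 52.0 and 34.3 TPM in KO and 70.7, 65.5 and 69.6 TPM in HET libraries (-0.56 ± 0.23), each without overlap and in opposite directions.

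**Figure D5:**
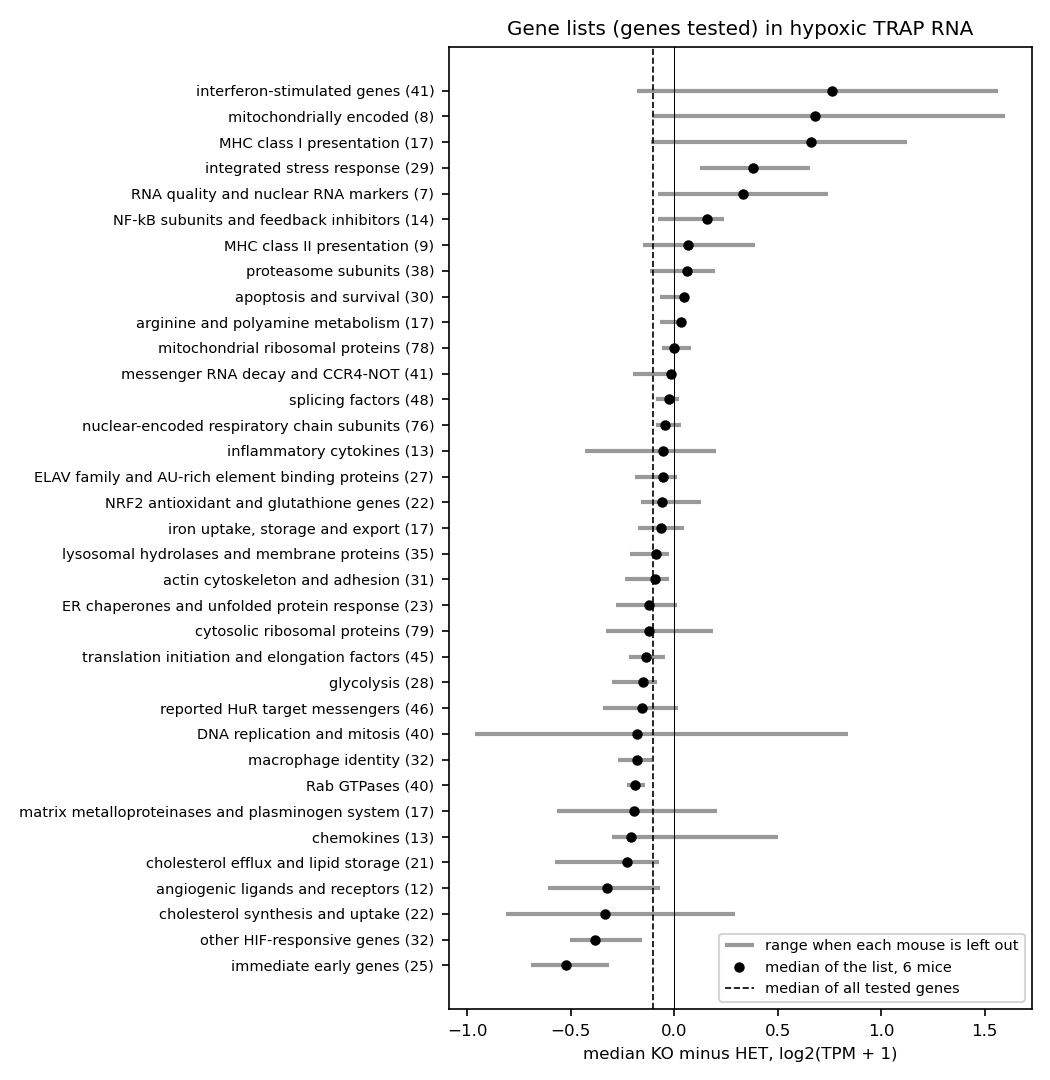
Median KO minus HET difference of 35 gene lists in hypoxic TRAP RNA (points, log2(TPM + 1)), with the number of genes tested in brackets, the range of the median when each mouse is left out (grey bars) and the median of all genes (dashed line at -0.10). Interferon-stimulated genes have the highest median at 0.76 and a range of -0.18 to 1.56, and immediate early genes have the lowest at -0.52.

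Interferon-stimulated genes had the highest median, with 1 high mouse in each genotype. Of 41 tested, 36 had a mean above 0, but 0 separated the groups. The median of 0.76 was -0.18 without KO-301, which left the high HET-129 in, and 0.52 without both mice. By library, centred per gene, the list stood at -0.81, -0.32 and 2.36 in KO-176, KO-281 and KO-301 and at -0.81, -1.43 and 1.23 in HET-97, HET-102 and HET-129, so 1 mouse of each genotype was high. Rsad2, viperin, had 16.7, 35.8 and 445.7 TPM in KO and 16.7, 2.64 and 71.3 TPM in HET libraries (1.99 ± 1.42), and Oas2, a sensor of double-stranded RNA, had 10.6, 16.3 and 35.8 TPM in KO and 11.1, 4.87 and 16.8 TPM in HET libraries (0.85 ± 0.55). Ddx58, the viral RNA sensor RIG-I, stood the other way at 2.13, 2.18 and 12.2 TPM in KO and 4.66, 8.59 and 31.8 TPM in HET libraries (-1.25 ± 0.80). The genes of MHC class I presentation followed the same mice. All 17 tested had a mean above 0, with 0 separated and a median of 0.66. That median was -0.11 without KO-301 and 0.23 without KO-301 and HET-129 together. H2-K1, a classical class I heavy chain, had 863.1, 1240.0 and 3351 TPM in KO and 686.9, 597.1 and 1644 TPM in HET libraries, and Tap2, of the peptide transporter, had 21.3, 38.3 and 95.3 TPM in KO and 21.2, 21.4 and 39.6 TPM in HET libraries. Of 9 genes of MHC class II presentation, 5 had a mean above 0 and 0 separated, and the median of 0.07 was -0.15 without HET-102. H2-DMb2, a chain of H2-DM, which exchanges peptides on class II molecules, had 3.47, 2.17 and 5.92 TPM in KO and 4.32, 6.22 and 9.46 TPM in HET libraries. H2-Eb1, a class II chain, had 27.3, 13.7 and 18.4 TPM in KO and 14.0, 6.89 and 26.2 TPM in HET libraries. Limma adjusted p of these genes were 0.977.

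Among macrophage identity genes, 9 of 32 had a mean above 0, and the median was -0.18. Of them 3 (9.38%) were lower without overlap, against 7.4% of all genes, and 0 were higher. Differences in the list ran from -0.85 to 2.16, so the largest was of a gene higher in KO, with groups that overlapped. Lyz2, lysozyme, had 8240, 12030 and 8917 TPM in KO and 16310, 16050 and 17390 TPM in HET libraries (-0.79 ± 0.31, limma adjusted p 0.977). Fcgr3, a low-affinity IgG receptor, had 1044, 630.9 and 971.3 TPM in KO and 1591, 1101 and 1438 TPM in HET libraries (-0.66 ± 0.27). Both genes separated the groups, and in these bulk cultures fewer cells of a type and less RNA per cell cannot be told apart. Of 35 lysosomal genes 15 had a mean above 0, with a median of -0.09 and differences from -1.08 to 0.92. In this list 1 (2.86%) was higher and 1 (2.86%) lower without overlap, against 2.93% and 7.4% of all genes. Lamp2, a lysosomal membrane protein, had 144.9, 130.7 and 177.6 TPM in KO and 273.0, 194.2 and 230.8 TPM in HET libraries (-0.62 ± 0.21), without overlap, and Glb1, beta-galactosidase, had 73.5, 54.4 and 41.1 TPM against 90.1, 73.2 and 76.1 TPM, with KO-176 just above HET-102. Of 17 genes of iron handling 6 had a mean above 0, and 1 (5.88%) was lower without overlap, against 7.4% of all genes. Ncoa4, the receptor that delivers ferritin to lysosomes, had 1.87, 1.79 and 1.99 TPM in KO and 11.6, 4.42 and 3.13 TPM in HET libraries (-1.19 ± 0.44), close together in KO and set mostly by HET-97. Tfrc, the transferrin receptor, had 1.60, 2.92 and 1.67 TPM in KO and 3.76, 2.65 and 3.42 TPM in HET libraries (-0.50 ± 0.31). Slc40a1, the iron exporter ferroportin, had 11.6, 29.8 and 13.2 TPM in KO and 21.2, 25.3 and 22.3 TPM in HET libraries (-0.43 ± 0.36). Osteoclast markers summed to 13.0 to 103.1 TPM in KO and 16.9 to 45.2 TPM in HET libraries, highest in KO-301, with Calcr at 0. Among them Ctsk was higher without overlap, at 11.2, 11.1 and 41.6 TPM in KO and 7.44, 8.94 and 10.1 TPM in HET libraries.

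Of 21 genes of cholesterol efflux and lipid storage, 7 had a mean above 0, and the median was -0.23. Without overlap, 1 (4.76%) was higher and 2 (9.52%) were lower, against 2.93% and 7.4% of all genes. Fabp4 and Fabp5, fatty acid-binding proteins, had 43.9, 110.1 and 20.1 TPM and 846.1, 1058 and 1224 TPM in KO, against 131.4, 132.1 and 101.4 TPM and 2100.0, 1156 and 2344 TPM in HET libraries. For each, 1 KO library reached past the lowest control, and the differences were -1.37 ± 0.55 and -0.79 ± 0.32. Soat1, which esterifies cholesterol for storage, had 65.3, 50.6 and 47.2 TPM in KO and 32.7, 37.5 and 36.7 TPM in HET libraries (0.58 ± 0.21, limma adjusted p 0.977), higher without overlap on ribosomes at a total RNA difference of -0.10. Of 22 genes of cholesterol synthesis and uptake, 3 had a mean above 0, with a median of -0.34 that was 0.29 without KO-301. Tm7sf2, a sterol reductase, had 10.5, 13.5 and 7.19 TPM in KO and 17.2, 17.1 and 18.1 TPM in HET libraries (-0.73 ± 0.28), and Fdft1, squalene synthase, had 22.5, 8.03 and 1.80 TPM in KO and 15.8, 20.5 and 12.3 TPM in HET libraries, where KO-176 was the highest of all 6. Of 17 genes of arginine and polyamine metabolism 10 had a mean above 0. Arg1, arginase 1, had 57.1, 3.02 and 73.7 TPM in KO and 137.9, 35.6 and 84.9 TPM in HET libraries (-1.55 ± 1.11), with KO-281 far below the rest. Amd1, of spermidine synthesis, had 21.3, 27.0 and 15.4 TPM in KO and 15.7, 13.2 and 12.1 TPM in HET libraries, and Dhps, which starts hypusine formation on eIF5A, had 49.4, 48.9 and 52.5 TPM in KO and 41.8, 40.2 and 42.9 TPM in HET libraries (0.27 ± 0.17). In the NRF2 list, 9 of 22 had a mean above 0, with a median of -0.06 that was 0.13 without KO-301, and Gclm, of glutathione synthesis, stood opposite to Txnrd1 at 5.11, 10.1 and 1.60 TPM in KO and 7.92, 8.85 and 14.9 TPM in HET libraries.

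Splicing factors held members that separated in both directions. Of 48 tested, 22 had a mean above 0, 3 (6.25%) were higher and 8 (16.7%) lower without overlap, against 2.93% and 7.4% of all genes, and the median was -0.03. Hnrnpa3, an hnRNP, had 201.8, 316.6 and 232.0 TPM in KO and 99.8, 120.9 and 121.6 TPM in HET libraries (1.11 ± 0.22, limma adjusted p 0.848), and differed by 0.23 in normoxic TRAP RNA. Luc7l3, a U1-associated factor, had 59.3, 55.1 and 59.8 TPM in KO and 29.5, 34.0 and 33.6 TPM in HET libraries (0.83 ± 0.18, limma adjusted p 0.977), with a tight spread in both groups. On the lower side Clk1, a kinase of SR proteins, had 41.7, 45.5 and 34.6 TPM in KO and 104.4, 67.2 and 73.2 TPM in HET libraries (-0.97 ± 0.24), and Srsf5, an SR protein, had 153.9, 130.5 and 126.9 TPM in KO and 227.5, 179.1 and 194.4 TPM in HET libraries (-0.54 ± 0.19). Clk1 also differed by -0.95 in hypoxic total RNA, while Hnrnpa3 differed by 0.57 and Luc7l3 by 0.24 there. Of 41 genes of messenger RNA decay, 20 had a mean above 0. Of these 41, 1 (2.44%) was higher and 5 (12.2%) lower without overlap, against 2.93% and 7.4% of all genes. Pan3, of a deadenylase, had 2.66, 2.72 and 3.05 TPM in KO and 7.92, 4.53 and 4.40 TPM in HET libraries (-0.76 ± 0.31), and Dis3l2, an exonuclease of uridylated RNA, had 3.83, 4.80 and 3.40 TPM in KO and 7.61, 5.37 and 6.62 TPM in HET libraries (-0.59 ± 0.28).

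Ribosomal protein genes varied widely between mice of the same genotype. Of 79 cytosolic ribosomal protein genes, 17 had a mean above 0, with a median of -0.12 that was 0.19 without KO-301. Without overlap, 1 (1.27%) was higher and 0 lower, against 2.93% and 7.4% of all genes. The higher gene was Rps24, named after its values were seen. Rpl10a, the gene of the protein that carries the tag, had 2443, 1267 and 676.0 TPM in KO and 2797, 2615 and 1569 TPM in HET libraries (-0.82 ± 0.49), lowest in KO-301. How the endogenous level relates to capture was not tested. Rps20 stood the other way at 796.1, 496.8 and 624.3 TPM in KO and 429.3, 500.2 and 356.4 TPM in HET libraries (0.56 ± 0.25). Of 45 initiation and elongation factors, 13 had a mean above 0, and the median was -0.14. Among them 1 (2.22%) was higher and 2 (4.44%) lower without overlap, both below the shares of all genes. Eef2k, the kinase that inhibits elongation, had 8.89, 8.41 and 11.4 TPM in KO and 6.15, 3.15 and 5.90 TPM in HET libraries (0.83 ± 0.32), and Eif4a1, the helicase of initiation, had 299.9, 259.8 and 188.7 TPM in KO and 436.5, 321.9 and 303.0 TPM in HET libraries (-0.51 ± 0.25). Both separated the groups, with limma adjusted p of 0.977.

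Mitochondrial and proteasome genes were near the median of all genes or rested on 1 library. Of 76 nuclear-encoded respiratory chain genes 32 had a mean above 0, and the median was -0.04. Without overlap, 0 were higher and 5 (6.58%) lower, against 2.93% and 7.4% of all genes. Ndufb5, a complex I subunit, had 156.2, 130.4 and 131.5 TPM in KO and 201.4, 214.5 and 178.5 TPM in HET libraries (-0.51 ± 0.18), but stood 0.50 higher in normoxic TRAP RNA, and the limma test of that difference between oxygen levels had an unadjusted p of 0.000934 and did not pass adjustment. Atp5s, of the ATP synthase, had 4.38, 3.82 and 0.76 TPM in KO and 4.69, 6.36 and 8.23 TPM in HET libraries (-1.03 ± 0.48). Of 8 tested mitochondrially encoded transcripts 7 had a mean above 0 with a median of 0.68, which was -0.11 without KO-281: mt-Nd6 had 40.3, 761.9 and 26.1 TPM in KO and 13.1, 32.2 and 23.03 TPM in HET libraries. The exception was mt-Nd2, with 15.6, 0 and 0 TPM in KO and 15.01, 16.7 and 9.57 TPM in HET libraries. Of 78 mitochondrial ribosomal protein genes 38 had a mean above 0, and the median was 0.00. Without overlap, 3 (3.85%) were higher and 1 (1.28%) lower, against 2.93% and 7.4% of all genes. Mrpl42 had 231.2, 177.7 and 166.6 TPM in KO and 258.8, 237.6 and 255.0 TPM in HET libraries (-0.40 ± 0.19). Mrpl3 had 6.52, 5.86 and 9.83 TPM in KO and 24.9, 9.71 and 21.2 TPM in HET libraries (-1.16 ± 0.40). Of the 35 lists, 11 kept the sign of their median when each mouse was left out and 24 did not, and the 4 mitochondrial and proteasome lists were among those that did not. The sign was taken against 0 and not against the median of all genes, -0.10. Of the lists that kept it, only the integrated stress response lay above 0. The medians of the lysosomal (-0.09) and actin (-0.09) lists, which also kept it, lay near that of all genes. Among 38 proteasome genes 23 had a mean above 0, with a median of 0.06 that was -0.12 without KO-301. Psmd8 had 269.8, 296.5 and 359.1 TPM in KO and 424.5, 425.5 and 340.4 TPM in HET libraries (-0.37 ± 0.20), with KO-301 above HET-129. Psmd11, of the regulatory lid, had 27.0, 39.4 and 58.2 TPM in KO and 21.98, 22.2 and 22.6 TPM in HET libraries (0.80 ± 0.30, limma adjusted p 0.977), higher without overlap at a total RNA difference of 0.04.

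Of 31 genes of the actin cytoskeleton and adhesion, 11 had a mean above 0, and the median was -0.09. Without overlap, 0 were higher and 1 (3.23%) lower, against 2.93% and 7.4% of all genes. That gene was Actb, cytoplasmic actin, with 4574, 3520 and 3286 TPM in KO and 4898, 4633 and 5569 TPM in HET libraries (-0.42 ± 0.26). Vim, vimentin, had 1805, 2134 and 1201 TPM in KO and 2599, 2104 and 2247 TPM in HET libraries (-0.47 ± 0.28), with KO-281 above HET-102. Of 17 genes of matrix metalloproteinases and the plasminogen system, which include the Mmp9 described above, 7 had a mean above 0 and 0 separated, and the median of -0.19 was 0.21 without HET-97.

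Apaf1, the core of the apoptosome, had 9.94, 13.6 and 8.25 TPM in KO and 3.74, 3.96 and 6.56 TPM in HET libraries (1.02 ± 0.32, limma adjusted p 0.977), higher without overlap, while its total RNA differed by 0.04. The list of apoptosis and survival genes had a median of 0.05, or -0.07 without HET-102, with 17 of 30 above 0, and Bcl2a1b, a survival protein with near-identical copies that could share reads, had 522.1, 303.2 and 267.2 TPM in KO and 352.9, 635.2 and 666.8 TPM in HET libraries. Of 40 Rab GTPases, 9 had a mean above 0, 0 were higher and 4 (10%) lower without overlap, against 7.4% of all genes, and the median of -0.19 stayed between -0.23 and -0.14 when each mouse was left out. Rab33b had 3.15, 3.25 and 3.58 TPM in KO and 9.03, 5.30 and 7.01 TPM in HET libraries (-0.88 ± 0.29), and Rab34 had 12.4, 9.60 and 3.83 TPM in KO and 26.6, 14.7 and 12.9 TPM in HET libraries (-1.04 ± 0.46). For the 40 genes of DNA replication and mitosis the median was -0.18, but it ran from -0.96 without HET-129 to 0.84 without KO-301. By library this list stood at 0.50, 1.38 and -1.93 in KO-176, KO-281 and KO-301 and at 0.53, 1.30 and -1.69 in HET-97, HET-102 and HET-129, so that KO-301 and HET-129 were low in both genotypes. Cenpa, the centromeric histone, averaged 59.0 ± 47.2 TPM in KO and 96.9 ± 38.6 TPM in HET libraries (SD, n = 3 each). Tpx2, a spindle factor, had 9.79, 26.5 and 9.68 TPM in KO and 11.0, 32.2 and 1.16 TPM in HET libraries. Tpx2 differed by 0.63, or by -0.44 without HET-129.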

How the data were processed

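Macrophage RNA of 6 mice was sequenced at 2 oxygen levels in 2 fractions, 24 libraries in all, and 6 were compared here. The deposited values were TPM per gene, a length-corrected share of each library, for 52636 genes. The aligner HISAT, DESeq2 and the build GRCm38 appear in the submitters' processing notes. Versions and the strand setting were not given in the sources used here. TPM of the 6 libraries summed to 999737 to 999884, so depth is unknown and no counting interval could be given. The mice are separate animals. In the files, 24 columns of the authors' ratios were not used, 27 symbols were stored as dates, and 147 identifiers had no match in GENCODE M21, which gave gene positions and 3' UTRs.

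Every gene that reached 1 TPM in 3 of the libraries compared was tested on log2(TPM + 1) with limma 3.58.1 in R 4.3.3 (trend, two-sided, Benjamini-Hochberg adjustment, threshold 0.05). That scale understates changes of low genes. The 6 libraries were fitted alone, and differences between oxygen levels or fractions used 12 libraries each. Mouse numbers tie oxygen levels and fractions to the same animals: deviations of the same mouse from its group mean correlated at 0.415 to 0.725 across oxygen and at 0.425 to 0.765 across fractions. KO and HET mice shared no number, so the hypoxic comparison has no pairing. Scripts were tested on simulated data.

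Elavl1 was named first. With too few genes past the threshold, up to 12 genes per direction (4 for the differences) were named by size among those with an unadjusted p under 0.05, groups that did not overlap and a mean of at least 4 TPM, and predicted genes, clones and pseudogenes were counted and not named. From 35 gene lists, 1 to 4 genes of smallest p at that mean level or defining members were named, and Gas5 and Rps24 were added after their values were seen. Members, lists and rules were chosen with earlier results of these data known. Alternatives were another pseudocount, other filters, 2 scalings, leaving out mice, array weights, robust moderation and the mouse as a block.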

Additional observations from a re-analysis of the deposited data

How the results depend on the processing

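In hypoxic TRAP RNA the count of genes past the threshold was 0, and 0 to 2 when each mouse was left out, with 2 (Mob1a and Gm11942) without KO-301. It was 1 without HET-129 and KO-301 together (Gm11942) and 1 when all 12 TRAP libraries were fitted (Gm26740). A pseudocount of 0.1, other filters, both scalings, array weights and robust moderation gave 0. The difference between fractions gave 0 calls, 4 with a pseudocount of 0.1 (Gm16174, Krcc1, Lrrfip1 and Pygo2) and 1 with quantile normalisation (Krcc1). With the mouse as a block, a pairing by animal, the difference between oxygen levels gave 0 calls, with 3.66% of genes at an unadjusted p under 0.05, and the difference between fractions gave 0 calls, with 4.73%; the block changed no call. The Elavl1 difference of -0.677 ran from -1.351 to 0.227 when each mouse was left out, reversed at 0.227 without KO-176. Tpx2 ran from -0.444 to 1.526 when each mouse was left out, and reversed to -0.444 without HET-129, to -0.215 without both mice and to -0.058 with array weights. H2-Eb1 ran from -0.01 without HET-102 to 0.882 without HET-129, and Gas5 from -0.315 without HET-129 to 0.078 without KO-301. The AU-rich contrast of -0.019 ran from -0.084 to 0.038. Genes without overlap, counted under settings chosen after seeing the data, numbered 321 higher and 810 lower, against 565 higher with quantile normalisation, 481 lower after rescaling, and 1196 higher and 2749 lower without HET-129 and KO-301, where 2 against 2 libraries are compared. Beyond the number of samples shown, causes were not tested. With 3 mice per genotype and unknown depth, low genes are the least certain.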

Other observations

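Some genes sat at 2 separate levels across the 12 TRAP libraries while total RNA of the same lysates showed no such split. A rule chosen after these values were seen asked for a gap of at least 2 on the log2(TPM + 1) scale with at least 2 libraries on each side and a highest level of at least 10 TPM in TRAP RNA. It also asked for no gap of 1 or more in total RNA, again with at least 2 libraries on each side. A total RNA library standing apart by itself was therefore not counted as a gap. It found 38 of 10943 tested genes (0.347%), and the reverse rule, a gap in total RNA and none in TRAP RNA, found 15 (0.137%). Among the 38 were Pygo2, Cab39 and Plekha2, which are 3 of the 24 genes named by size, and Elavl1, whose low libraries were hypoxic KO-176 and normoxic KO-301.

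Other genes with this pattern were Ptpn7, a phosphatase of lymphoid and myeloid cells, with low libraries at up to 0.56 TPM and the others from 23.48 TPM, and Lars2, mitochondrial leucyl-tRNA synthetase, with low libraries at up to 2.57 TPM and the others from 29.08 TPM. Syk, the kinase downstream of Fc receptors, had low libraries at up to 3.39 TPM and the others from 18.47 TPM, and Mapk14, p38 alpha, up to 3.31 TPM and from 17.1 TPM. Ptpn7 was low in 1 normoxic KO and 1 normoxic HET library and in 0 hypoxic libraries. Over the 38 genes, a mouse was at the same level in both its TRAP libraries in 72.4% of cases. In hypoxia, the KO mice were low for 39.5, 39.5 and 57.9% of the 38 genes, against 7.89, 23.7 and 28.9% for the HET mice. In normoxia the shares were 39.5, 55.3 and 39.5% in KO mice and 13.2, 31.6 and 52.6% in HET mice, where the groups overlapped. These are descriptions with no test, and what sets the level was not tested.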
